A study of Mus musculus with 2 samples.

Results

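Small-molecule methyltransferases move a methyl group onto amines, thiols, metalloids, amino acid derivatives and lipids, and most of them take it from S-adenosylmethionine. *Inmt* encodes indolethylamine N-methyltransferase, which methylates tryptamine and related amines. The other 8 genes described here encode enzymes of the same kind. They are *Nnmt* (nicotinamide), *Hnmt* (histamine), *Tpmt* (thiopurines and other thiols), *As3mt* (arsenite), *Gnmt* (glycine), *Gamt* (guanidinoacetate, the last step of creatine synthesis), *Pemt* (phosphatidylethanolamine) and *Bhmt*, which differs from the others in that it passes a methyl group from betaine to homocysteine. Several of these enzymes are known chiefly from the liver, and in the kidney the proximal tubule is the main site of guanidinoacetate synthesis. The 9 genes were chosen by name, and all 9 were found among the 19829 genes of the deposited table.

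Messenger RNA was sequenced from whole kidney in 1 wild-type library (WT+AKI) and 1 *Inmt* transgenic library (TG+AKI), where AKI stands for acute kidney injury. Both groups received high-dose voclosporin (Voc), a calcineurin inhibitor, at 30 mg/kg intraperitoneally per day for 2 weeks from 8 weeks of age. Both underwent 30 min of bilateral renal ischemia followed by reperfusion (I/R) at 14 weeks of age, and a longer Voc course before I/R is also described for the model. The paper gives different times from I/R to harvest in a figure legend and in its methods. The paper describes the I/R model in male C57BL/6 mice, the transgene raised *Inmt* in proximal tubules, and littermates served as controls. The promoter and the extent of the transgene were not given in the sources used here. The labels state that no treatment was given, and the title of the TG+AKI sample also names a conditional knockout, so the groups rest on the library names. With 1 library per group there was no test of genotype, and no difference below has a replicate check.

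The libraries held 38542764 (WT+AKI) and 36427421 (TG+AKI) reads in listed genes. Values are reads after scaling by library, and 1 read was worth 0.0236 and 0.0302. These were also the lowest listed values, so a gene without reads in 1 or both libraries has no row. Such genes are outside all shares and rankings below. Brackets hold exact 95% (Clopper-Pearson) intervals of the ratio TG+AKI over WT+AKI, from the reads of both libraries, and they cover counting error only. The 11 proximal tubule markers examined were each at least 2-fold higher in TG+AKI, and their values summed to 5681 against 18795, a ratio of 3.31. The sums were 2074 against 3655 for 4 distal nephron markers, 532.5 against 268.0 for 7 stromal markers, 205.5 against 88.5 for 9 macrophage markers and 2466 against 49.1 for 6 markers of injured tubules, with WT+AKI first throughout. The distal nephron ratios ranged from 1.16 (*Aqp2*) to 5.15 (*Slc12a3*). Of the macrophage markers, 8 were lower in TG+AKI and 1 was higher, *Csf1r* (37.5 against 43.0). In whole kidney RNA, fewer cells of a type and less RNA per cell cannot be told apart.

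Promoter sequences are shown for *Inmt*, *Gnmt*, *Gamt* and *Hnmt*, which were picked because they were at least 2-fold higher in TG+AKI. Each stretch is the RefSeq sequence (GRCm38.p6, the assembly that mm10 names) before the outermost start that RefSeq or GENCODE M21 annotates, written 5′ to 3′ on the strand of the gene. Capitals mark 3 motifs that were searched and do not overlap here: TATAAA on the gene strand (TATA box), GTTAAT on both strands (part of the site of hepatocyte nuclear factor 1, a factor of proximal tubule and liver) and GCGTG on both strands (core of the site of the aryl hydrocarbon receptor, which binds indoles).
Inmt (chr6:55175044-55175240, minus strand): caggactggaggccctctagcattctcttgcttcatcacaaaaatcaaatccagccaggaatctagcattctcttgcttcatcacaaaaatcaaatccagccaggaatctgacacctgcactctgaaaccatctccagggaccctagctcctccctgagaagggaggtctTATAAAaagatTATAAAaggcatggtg
Gnmt (chr17:46729169-46729415, minus strand): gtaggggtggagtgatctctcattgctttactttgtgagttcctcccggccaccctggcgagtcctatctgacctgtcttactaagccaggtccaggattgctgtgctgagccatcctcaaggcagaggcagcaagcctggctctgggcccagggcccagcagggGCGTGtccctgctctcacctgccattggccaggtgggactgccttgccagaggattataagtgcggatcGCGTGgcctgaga
Gamt (chr10:80261013-80261262, minus strand): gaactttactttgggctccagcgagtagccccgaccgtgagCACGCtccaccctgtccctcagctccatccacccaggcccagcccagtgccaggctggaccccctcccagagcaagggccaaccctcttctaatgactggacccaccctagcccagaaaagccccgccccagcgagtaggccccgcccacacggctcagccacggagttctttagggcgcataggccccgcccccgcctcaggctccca
Hnmt (chr2:24049395-24049629, minus strand): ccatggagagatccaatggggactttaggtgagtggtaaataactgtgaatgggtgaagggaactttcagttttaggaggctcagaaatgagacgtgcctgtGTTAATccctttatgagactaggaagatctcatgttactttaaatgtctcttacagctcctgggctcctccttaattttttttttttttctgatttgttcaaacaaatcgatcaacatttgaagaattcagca

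The *Inmt* stretch held 2 TATAAA motifs, which began 27 and 16 bases before the outermost start. That start is from GENCODE and lies 53 bases upstream of the RefSeq start, before which the same motifs began at 80 and 69 bases. In *Gnmt*, GCGTG began 82 and 13 bases before the outermost start. *Gamt* held GCGTG on the opposite strand at 209 bases, and *Hnmt* held GTTAAT at 133 bases. Among members not shown, *Tpmt*, which was under 2-fold, held GCGTG at 4 places in the 250 bases before its RefSeq start. *Bhmt*, *As3mt* and *Pemt* held none of the 3 motifs in their windows, and *Nnmt* had no promoter entry. Over the 250 bases before each of 32851 annotated starts, TATAAA was present in 7.59%, GTTAAT in 6.43% and GCGTG in 28.2%. These windows end at RefSeq starts, and some stretches printed here are shorter, such as the 197 bases of *Inmt*. These are matches of letters and not mapped binding sites. The *Inmt* sequence belongs to the endogenous gene. The table has 1 row for *Inmt*, and whether reads of the transgene were counted in it was not tested. For *Bhmt*, the GENCODE start lies 203 bases upstream of that in RefSeq, and no promoter is shown.

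*Inmt* was examined first, since it is the gene that the transgene was made to raise. The gene lies on chromosome 6, 55170626 to 55175043, minus strand (mm10). Its value was 10.4 in WT+AKI (443 reads) against 402.8 in TG+AKI (13339 reads), a ratio of 38.5 [35.1 to 42.5]. On the log2(value + 1) scale, which is used for all log2 fold changes here and understates the change of low genes, the difference was 5.14. Among the 10294 genes that reached a value of 10 in either library, none had a higher log2 fold change. *Inmt* took 0.00115% of the reads in WT+AKI and 0.0366% in TG+AKI. Per kilobase of its longest annotated transcript, *Inmt* ranked 5651 of 17793 genes in WT+AKI and 106 in TG+AKI. Of 2179 genes that reached 100 in the library where they were higher, the log2 fold changes nearest to that of *Inmt* belonged to *Egf* (4.39), *Gatm* (4.0) and *Hsd3b2* (3.94), a likeness over 2 libraries only. The paper reports that INMT staining fell in wild-type kidneys under Voc and I/R. A loss of *Inmt* in WT+AKI and a gain from the transgene cannot be told apart with these 2 libraries.

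Of the other genes, 7 also had ratios above 1, and *Nnmt* alone had a ratio below 1. Of all 9 genes, 7 reached the value of 10 and entered the comparison by fold. Among these, 5 were at least 2-fold higher in TG+AKI (*Inmt*, *Bhmt*, *Gnmt*, *Gamt* and *Hnmt*), as were 5.74% of the 10294 compared genes. *Gnmt*, *Gamt* and *Bhmt* reached the filter through TG+AKI alone, the library in which they were higher, and *Nnmt* was left out by it, so this count is a description and favours higher genes. With no filter, 5 of all 9 genes were at least 2-fold higher, as were 3.95% of all listed genes. None of the 7 was at least 2-fold lower, as were 7.12% of the compared genes. The counting interval of the ratio excluded 1 for 8 of the 9 genes, and it did so for 60.3% of all listed genes.

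**Figure D1:**
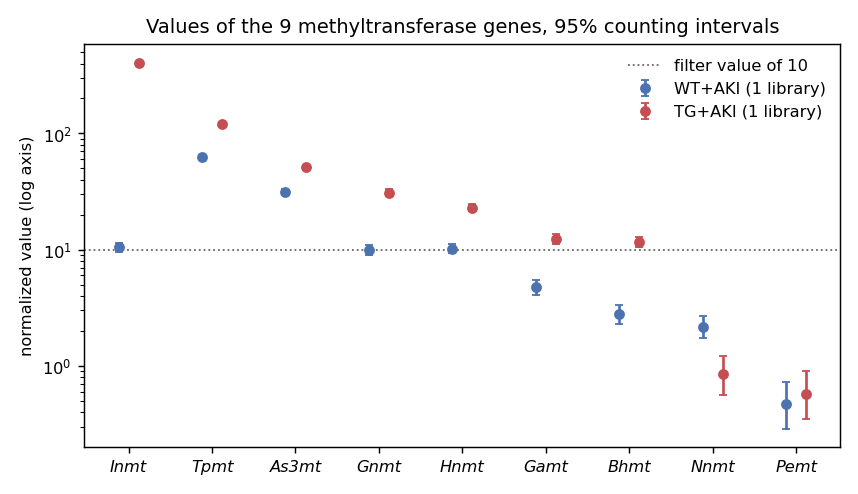
Normalized value (log axis) of each of the 9 genes in the WT+AKI and TG+AKI libraries, with 95% Poisson counting intervals and a dotted line at the filter value of 10. Points of 1 gene can be compared between libraries, whereas values of different genes are not corrected for length here; *Inmt* shows the widest gap, 10.4 against 402.8, and *Nnmt* is the gene that is lower in TG+AKI.

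*Nnmt* and *Hnmt* methylate nitrogen in nicotinamide and in histamine, and their ratios lay on opposite sides of 1. *Nnmt* (chromosome 9, 48591877 to 48605153, minus strand) removes nicotinamide, a precursor of NAD, as 1-methylnicotinamide. *Nnmt* had 2.17 in WT+AKI (92 reads) against 0.846 in TG+AKI (28 reads). It was 2.57-fold lower [1.67 to 4.07] in TG+AKI and stayed under the filter. *Hnmt* (chromosome 2, 24002910 to 24049394, minus strand) inactivates histamine inside cells. *Hnmt* had 10.2 in WT+AKI (433 reads) against 23.0 in TG+AKI (762 reads), with a ratio of 2.25 [2.0 to 2.54] and a log2 fold change of 1.10. A ratio of reads within 1 library does not depend on the scaling between libraries. There were 4.82 *Inmt* reads per *Nnmt* read in WT+AKI against 476.4 in TG+AKI, a change of 98.9-fold [64.1 to 152.6], where the 95% interval is taken on the log scale from the 4 read counts.

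*Tpmt* and *As3mt* act on thiols and on arsenic, and both differed by less than 2-fold. *Tpmt* (chromosome 13, 47022482 to 47044737, minus strand) inactivates thiopurine drugs. *Tpmt* had 63.1 in WT+AKI (2674 reads) against 120.3 in TG+AKI (3984 reads), with a ratio of 1.91 [1.82 to 2.004]. Its log2 fold change of 0.92 was larger than that of 93.1% of the compared genes. A processed pseudogene on the opposite strand, *Gm18807*, covers 17.4% of the *Tpmt* exon bases. The 20.8% of the 100-base words of the longest *Tpmt* transcript that *Gm18807* holds are this same stretch, read on the other strand. Whether reads from it were counted for *Tpmt* depends on the annotation and the use of strand, which were not given. *As3mt* (chromosome 19, 46707458 to 46741099, plus strand) methylates inorganic arsenic. *As3mt* had 31.3 in WT+AKI (1328 reads) against 51.2 in TG+AKI (1697 reads), with a ratio of 1.64 [1.52 to 1.76] and a log2 fold change of 0.69.

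*Gnmt* and *Gamt* use S-adenosylmethionine in amino acid metabolism, and both were past 2-fold. *Gnmt* (chromosome 17, 46725664 to 46729168, minus strand) makes sarcosine from glycine and is known as a buffer of the methyl donor. *Gnmt* had 9.95 in WT+AKI (422 reads) against 31.0 in TG+AKI (1027 reads), with a ratio of 3.12 [2.78 to 3.50] and a log2 fold change of 1.55. *Gamt* (chromosome 10, 80258151 to 80261012, minus strand) makes creatine. *Gamt* had 4.74 in WT+AKI (201 reads) against 12.4 in TG+AKI (409 reads), with a ratio of 2.61 [2.195 to 3.10] and a log2 fold change of 1.22.

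*Bhmt* and *Pemt* belong to choline metabolism and were the least abundant of the 9 per length in WT+AKI. *Bhmt* (chromosome 13, 93616675 to 93637961, minus strand) regenerates methionine. *Bhmt* had 2.78 in WT+AKI (118 reads) against 11.6 in TG+AKI (384 reads). Its ratio of 4.17 [3.38 to 5.17] was the largest of the 9 after that of *Inmt*, and the log2 fold change was 1.74. *Bhmt-ps1*, *Gm5096* and the antisense transcript *Gm15622* hold 6.88% of the 100-base words of its longest transcript. *Pemt* (chromosome 11, 59970614 to 60046489, minus strand) makes phosphatidylcholine by methylation. *Pemt* had 0.472 in WT+AKI (20 reads) against 0.574 in TG+AKI (19 reads), and with a ratio of 1.22 [0.614 to 2.40] a difference was not detectable at this depth. The other 7 genes, *Pemt* among them, shared no 100-base word with another gene.

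Levels of different genes were compared per kilobase of the longest annotated transcript. On this scale the 9 genes summed to 74.9 in WT+AKI, led by *Tpmt* (23.3), *As3mt* (18.04), *Inmt* (9.70) and *Gnmt* (9.62), then *Hnmt* (6.17), *Gamt* (4.80), *Nnmt* (2.08), *Bhmt* (0.702) and *Pemt* (0.470). In that order, *Inmt* and *Gnmt*, and *Bhmt* and *Pemt*, did not differ beyond counting error. In TG+AKI the sum was 508.6, led by *Inmt* (374.0), then *Tpmt* (44.4), *Gnmt* (29.96), *As3mt* (29.5), *Hnmt* (13.9), *Gamt* (12.5), *Bhmt* (2.93), *Nnmt* (0.811) and *Pemt* (0.572). Here the neighbours within counting error were *Gnmt* and *As3mt*, *Hnmt* and *Gamt*, and *Nnmt* and *Pemt*. *Inmt* made up 13.0% of the summed level in WT+AKI against 73.5% in TG+AKI, or 7.33% against 60.5% when the median transcript length of each gene was used. Without *Inmt*, the sum was 65.2 against 134.6.

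**Figure D2:**
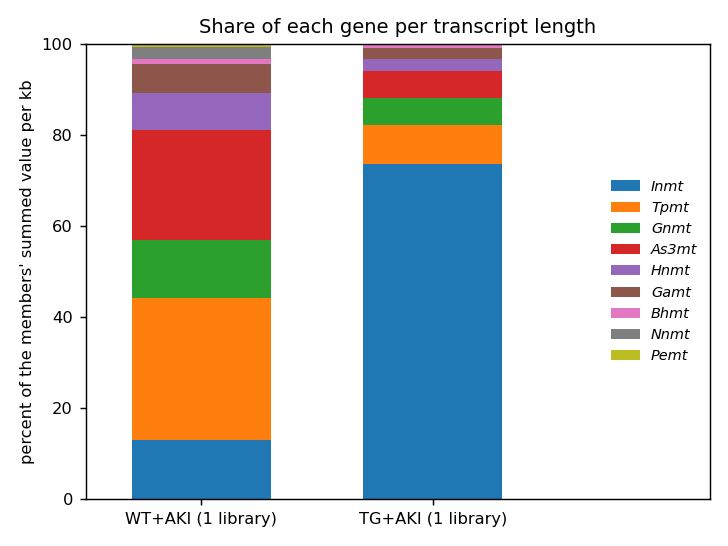
Percent of the summed value per kilobase that each of the 9 genes took in the WT+AKI and in the TG+AKI library (1 library each, no error bars). *Inmt* took 13.0% in WT+AKI and 73.5% in TG+AKI, while *Tpmt* took the largest part in WT+AKI.

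Since the proximal tubule markers were also higher in TG+AKI, the reads of each gene were divided by the summed reads of the 11 markers in the same library, a comparison chosen after the values were seen. On this scale the ratio of *Inmt* was 11.7 [10.6 to 12.8], and that of *Bhmt* was 1.26 [1.02 to 1.55]. For *Gnmt* it was 0.942 [0.841 to 1.05], an interval that includes 1. The ratios of the other genes were below 1, namely 0.787 [0.665 to 0.932] for *Gamt*, 0.681 [0.605 to 0.766] for *Hnmt*, 0.577 [0.549 to 0.606] for *Tpmt*, 0.495 [0.460 to 0.531] for *As3mt*, 0.368 [0.196 to 0.689] for *Pemt* and 0.118 [0.0772 to 0.180] for *Nnmt*. *Inmt* thus exceeded the marker sum in its difference, and most of the others differed by less than it did. The markers themselves ranged from a ratio of 2.004 (*Slc27a2*) to 7.59 (*Slc22a8*), so which genes fall below 1 depends on the markers summed. For example, the ratios of *Gnmt* (3.12) and *Gamt* (2.61) as deposited were above that of *Slc27a2*. The part of tubular RNA content in the differences of the 9 genes was not tested.

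**Figure D3:**
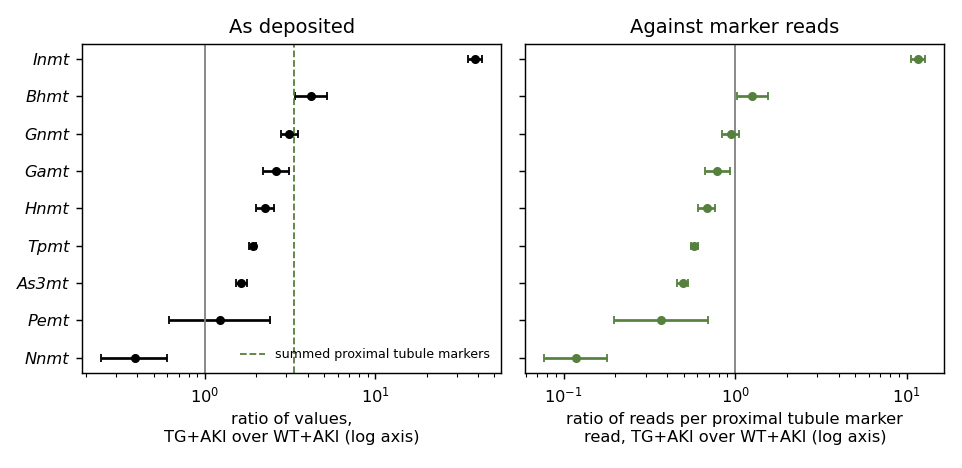
Ratio TG+AKI over WT+AKI (log axis) of the 9 genes with 95% counting intervals, from the values (left, with a dashed line at the 3.31 of the summed markers) and after division by the summed reads of 11 proximal tubule markers (right). After division, *Inmt* stays at 11.7, *Bhmt* and *Gnmt* lie near 1, and the other 6 genes lie below 1, a split that depends on the markers summed.

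Markers of other cells known to express some of these enzymes were listed beside them. Of 10 hepatocyte markers, 7 had a row, and they summed to 117.2 against 144.2. *Alb*, albumin, was low but had a ratio of 10.3 [7.21 to 15.2], with 0.802 in WT+AKI (34 reads) against 8.27 in TG+AKI (274 reads). *Ttr* also had a ratio above 1 (22.8 against 75.5), while *Apoc3* (21.5 against 8.15) and *Serpina1a* (68.8 against 47.8) had ratios below 1. *Apoa1* (0.991 against 0.996) and *F2* (0.613 against 0.695) were near equal, and *Apoa2* was at 1.75 against 2.84. Stromal markers, beside *Nnmt*, lay between a ratio of 0.232 (*Col1a1*) and 0.986 (*Acta2*). Of 4 adipocyte markers only *Cidec* had a row (5.66 against 0.181), and none of the 5 mast cell markers had a row. A marker without a row may still have had reads in 1 of the libraries. The part of these cells in the values of *Bhmt*, *Gnmt*, *Hnmt* and *Nnmt* was not tested.

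The pathways around each enzyme were described with listed genes, and values are given as WT+AKI against TG+AKI, followed by the log2 fold change where the gene passed the filter. The methionine cycle supplies the methyl donor and clears its product. Of 14 listed genes in or around it, 2 were at least 2-fold higher and none at least 2-fold lower, with a median of 0.54. The 2 were *Cbs*, which draws homocysteine out of the cycle into cysteine synthesis (93.6 against 235.1, 1.32), and *Ahcyl2*, a relative of S-adenosylhomocysteine hydrolase (154.5 against 352.4, 1.18). The hydrolase itself, *Ahcy*, was at 250.8 against 480.1 (0.93). *Mat2a*, the S-adenosylmethionine synthetase outside the liver, was at 554.4 against 567.8 (0.03). The lowest differences were those of *Mtrr* (17.1 against 12.7, -0.40) and *Mtap* (38.9 against 30.7, -0.33).

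Around *Bhmt* and *Gnmt*, 8 of 9 listed genes of choline, betaine and sarcosine handling were compared, with a median of 0.94. Of these, 4 were at least 2-fold higher, as were 5.74% of all compared genes, and none was at least 2-fold lower. The 4 were the imino acid transporter *Slc6a20b* (68.4 against 262.2, 1.92), the dimethylglycine dehydrogenase *Dmgdh* (72.2 against 196.2, 1.43), the sarcosine dehydrogenase *Sardh* (190.5 against 473.4, 1.31) and the sarcosine and pipecolate oxidase *Pipox* (193.9 against 394.6, 1.02). The ratios of *Dmgdh* (2.72), *Sardh* (2.49) and *Pipox* (2.04) were below the 3.31 of the summed proximal tubule markers, and that of *Slc6a20b* (3.83) was above it. The choline transporter *Slc44a1* was at 66.2 against 47.4 (-0.47). *Slc6a12*, a betaine transporter under the filter, was at 0.708 against 4.56. There were 0.0523 *Gnmt* reads per *Sardh* read in WT+AKI against 0.0655 in TG+AKI, a change of 1.25-fold [1.12 to 1.41]. *Bhmt2*, the paralog of *Bhmt*, was at 64.7 against 126.4 (0.96). Per length *Bhmt2* exceeded *Bhmt* 37.3-fold in WT+AKI against 17.5-fold in TG+AKI, and the ratio of *Bhmt* to *Bhmt2* reads changed 2.13-fold [1.72 to 2.63].

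Both enzymes of creatine synthesis were past 2-fold, to different extents. *Gatm*, which makes the guanidinoacetate that *Gamt* methylates, was at 66.3 against 1075 (4.0), a ratio of 16.2 [15.6 to 16.9]. Per length *Gatm* exceeded *Gamt* 5.78-fold in WT+AKI against 36.0-fold in TG+AKI. The ratio of *Gamt* to *Gatm* reads was 6.23-fold lower [5.24 to 7.403] in TG+AKI. Of 5 compared genes on the list, *Gatm* and the creatine kinase *Ckb* (27.1 against 69.5, 1.33) were at least 2-fold higher and none was at least 2-fold lower. Over all compared genes, 5.74% were higher and 7.12% lower by at least 2-fold. The mitochondrial kinase *Ckmt1* was at 43.4 against 41.4 (-0.07).

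In histamine turnover, *Aoc1*, the secreted diamine oxidase, had a ratio on the other side of 1 from *Hnmt*. *Aoc1* had 10.001 in WT+AKI (424 reads) against 3.65 in TG+AKI (121 reads) and was 2.74-fold lower [2.23 to 3.38] in TG+AKI. There were 1.02 *Hnmt* reads per *Aoc1* read in WT+AKI against 6.30 in TG+AKI, a change of 6.17-fold [4.88 to 7.79]. Under the filter, *Hdc*, which makes histamine, was at 0.802 against 0.272, and *Maob*, which oxidizes methylhistamine, was at 6.16 against 2.05.

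Around *Nnmt*, none of 8 compared genes of nicotinamide and NAD metabolism was past 2-fold in either direction, and their median of 0.15 was below 0 with equal column totals or with any of the 3 other filters. *Nampt*, which recycles nicotinamide, was at 247.5 against 159.3 (-0.63), and *Cd38*, which consumes NAD, was at 12.7 against 9.78 (-0.35). *Nadsyn1* (18.5 against 29.1, 0.62) and *Naprt* (21.1 against 32.6, 0.61), of the route from nicotinic acid, had the highest log2 fold changes. *Aox1*, which oxidizes 1-methylnicotinamide, was under the filter at 3.02 against 1.27, 2.38-fold lower [1.67 to 3.46] in TG+AKI.

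Among 5 compared genes that make or degrade indole amines, *Ddc*, which makes tryptamine (60.9 against 145.1, 1.24), and the aminoaldehyde dehydrogenase *Aldh9a1* (232.9 against 535.7, 1.20) were at least 2-fold higher. *Maoa*, which oxidizes amines, was at least 2-fold lower (43.1 against 17.9, -1.22). Over all compared genes, 5.74% were higher and 7.12% lower by at least 2-fold. Around *As3mt*, 4 genes of arsenic handling had a median of -0.36, and thioredoxin reductase *Txnrd1* (552.2 against 177.5, -1.63) was at least 2-fold lower. *Gsto1* was at 66.4 against 49.3 (-0.42), and *Pnp* was at 102.2 against 106.3 (0.06). Around *Tpmt*, 5 purine genes had a median of -0.78, and xanthine dehydrogenase *Xdh* (145.8 against 44.6, -1.69) was at least 2-fold lower. *Impdh1* was at 11.1 against 5.50 (-0.90), and *Gmps* was at 53.0 against 73.8 (0.47).

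Around *Pemt*, 1 of 10 genes of phosphatidylcholine synthesis was at least 2-fold higher, *Pcyt2* of the ethanolamine branch (56.7 against 189.1, 1.72), and the list median of 0.15 was below 0 with equal column totals. The cholinephosphotransferase *Chpt1* was at 1164 against 2151 (0.89), and the choline kinases *Chkb* (47.3 against 34.0, -0.47) and *Chka* (100.6 against 74.2, -0.43) were lowest. Per length *Pcyt1a*, of the route from choline, exceeded *Pemt* 53.0-fold in WT+AKI against 49.97-fold in TG+AKI.

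Other methyltransferases were listed as well. At the shares of all compared genes (5.74% at least 2-fold higher, 7.12% at least 2-fold lower), lists this short would hold few genes past 2-fold. None of 8 further small-molecule methyltransferases was past 2-fold in either direction, and their median of 0.21 was below 0 with equal column totals. *Bhmt2* and *Mettl7a1*, a thiol methyltransferase (320.4 against 596.8, 0.90), were highest. None of 18 methyltransferases of DNA, RNA and protein was past 2-fold, with a median of -0.08 that was above 0 with a filter of 50. Their extremes were *Ehmt1* (24.95 against 32.4, 0.37), *Mettl3* (16.6 against 21.2, 0.34), *Dnmt1* (36.5 against 23.4, -0.62) and *Ezh2* (10.1 against 4.98, -0.89). *Smyd3*, a histone methyltransferase under the filter, was at 1.53 against 7.52, a ratio of 4.90 [3.72 to 6.55]. No difference between the lists was tested.

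**Figure D4:**
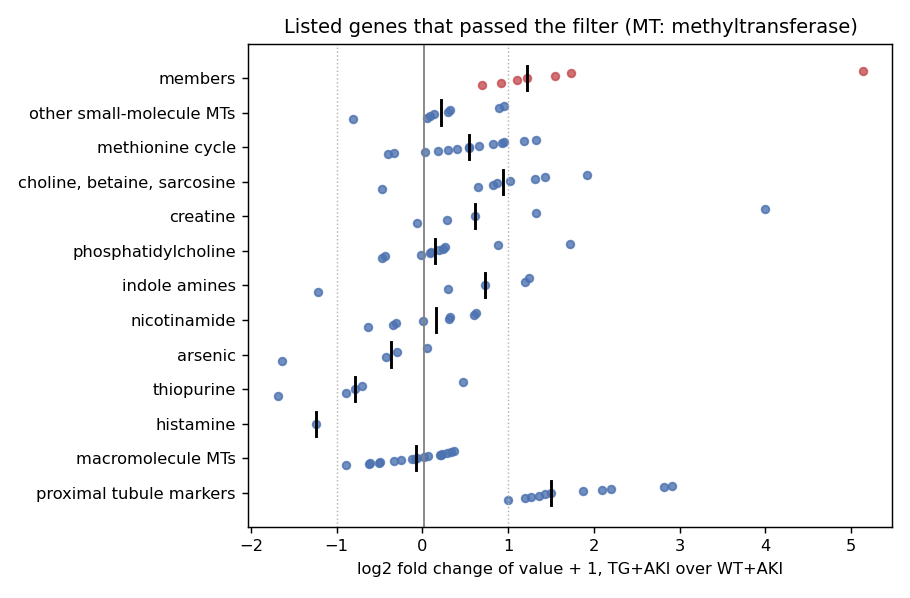
Log2 fold change of value + 1, TG+AKI over WT+AKI, of each listed gene that passed the filter, with list medians as black bars, a grey line at the median of all compared genes (0.01) and dotted lines at 2-fold. The 7 compared members lie between 0.69 and 5.14, and the macromolecule methyltransferases lie between -0.89 and 0.37.

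The count of members past 2-fold depended on scaling. With both libraries scaled to equal totals, which shifted the median over the compared genes by -0.27 on the log2 scale, 3 of 7 members (*Inmt*, *Bhmt* and *Gnmt*) were at least 2-fold higher, as were 3.46% of genes. The split over all genes was then 359 higher and 1141 lower, with 23.9% of those past 2-fold higher, against 591 and 733 (44.6%) as deposited. With the median ratio of genes at or above 100 in both libraries set to 1, a shift of -0.14, 4 of 7 members were at least 2-fold higher, as were 4.44% of genes. The split was then 458 higher and 915 lower (33.4%). With a filter of 50 it was 374 higher and 295 lower (55.9%). The direction of all 9 genes was kept under 2 other pseudocounts and 3 other scalings, although *Pemt* came within 0.0025 of 0.

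**Figure D5:**
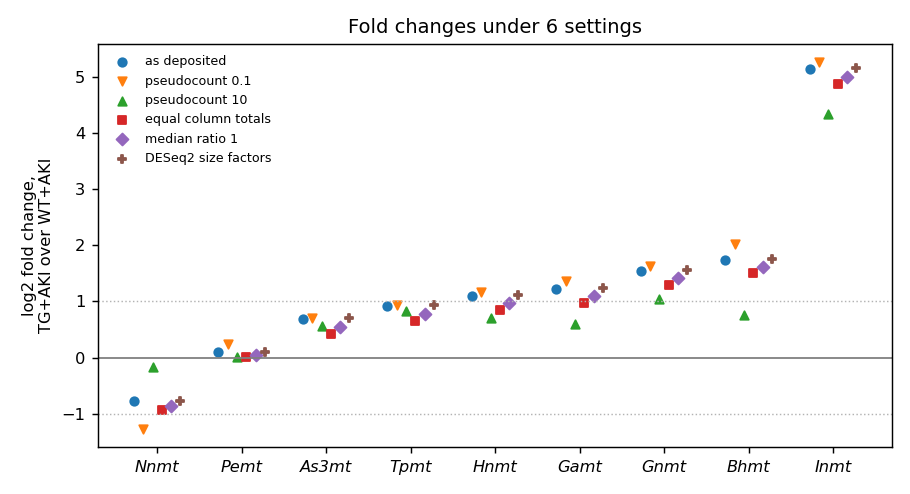
Log2 fold change, TG+AKI over WT+AKI, of the 9 genes as deposited and under 2 other pseudocounts and 3 other scalings (symbols), with dotted lines at 2-fold. No gene crosses 0, *Inmt* lies between 4.34 and 5.26, and a pseudocount of 10 brings *Bhmt*, *Gamt* and *Hnmt* below 2-fold.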

How the data were processed

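Whole kidney mRNA was compared between 2 libraries, 1 per group. A TruSeq stranded kit was used per the labels. The submitters' processing notes name STAR 2.7.3a, HTSeq, DESeq2, Cufflinks 2.2.1, FastQC, edgeR and mm10; the annotation and any use of strand in counting were not given in the sources used here. The deposited table holds a signal that the authors made by scaling read counts of each library. Dividing a column by its smallest entry gave whole reads for 100% of genes (tolerance 0.01 of a read). No count model could be fitted with 1 library per group.

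Genes that reached 10 (424.0 reads in WT+AKI, 331.2 in TG+AKI) in either library were compared as log2(value + 1), with a call at 2-fold. The members and lists were chosen with earlier results of these data known. Named were all members, the 2 largest rises and 2 largest falls of each pathway list, partners in the read ratios, the 3 genes nearest to *Inmt*, and markers that give a range or lie near 0. *Ahcy*, *Mat2a*, *Slc6a12*, *Hdc*, *Maob*, *Aox1* and *Smyd3* fall outside this rule and were chosen after their values were seen. A gene that the rule names is not reported here. GENCODE M21 gave positions and lengths (89.7% of genes). Alternatives were pseudocounts of 0.1 and 10, equal column totals, a median ratio of 1, size factors by the DESeq2 median of ratios (computed in numpy), no filter, and filters of 1 and 50. Calls and intervals were tested on simulated counts with counting error only, so variation between animals was not covered. The planted changes were larger than 2-fold and lay in genes with higher mean values than *Hnmt*, *Gamt*, *Bhmt*, *Nnmt* and *Pemt*. Software was Python 3.11.15 (numpy 2.4.6; scipy 1.17.1; pandas 2.3.3; matplotlib 3.10.9).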

Additional observations from a re-analysis of the deposited data

How the results depend on the processing

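The count of members at least 2-fold higher, 5 of 7 as reported, was 2 of 7 with a pseudocount of 10 (3.61% of all compared genes), 3 of 7 with equal column totals (3.46%) and 1 of 3 with a filter of 50 (8.56%), which leaves fewer genes. Under the other 5 alternatives it was 4 or 5, beside 3.95% to 6.07% of all compared genes. Among members that passed the filter in use, none was at least 2-fold lower under the 8 alternatives. *Nnmt*, under the filter of 10, had a log2 fold change of -1.26 with a pseudocount of 0.1, which is past 2-fold lower, and of -0.78 with a pseudocount of 1. The log2 fold change of *Inmt* was 4.34 with a pseudocount of 10 and 4.88 with equal column totals. Of 45 values of single members under 5 alternatives, 14 moved by more than counting error and none changed sign. Over all alternatives, list medians ranged from -0.05 to 0.61 for the other small-molecule methyltransferases, from -0.31 to 0.17 for nicotinamide, from -0.12 to 0.24 for phosphatidylcholine and from -0.34 to 0.11 for the macromolecule methyltransferases. No paired analysis was possible because each group had 1 library. Depth limits *Pemt* (20 and 19 reads) and *Nnmt* (92 and 28 reads) most.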
